A study of Homo sapiens with 18 samples.

Results

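The genes described here are the 3 inducible catalytic subunits of the immunoproteasome, PSMB8, PSMB9 and PSMB10, and the 2 subunits of its PA28 activator, PSME1 and PSME2. They were taken by name, and all 5 were found among the 19784 genes listed in each table of 18 RNA sequencing libraries. Levels are given as CPM (counts per 1000000 sequenced reads), and all 5 exceeded the minimum of 1 CPM needed for testing. They were described over 6 groups of THP-1, a human monocytic leukaemia line with the MLL-AF9 fusion, that differ in the form of PHF8 they carry. PHF8 is a histone demethylase, and the F279S substitution is known to abolish its catalysis.

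In the first experiment, 4 libraries each came from THP-1 labelled with the PHF8 genotype, from THP-1 labelled F279S and from the wild-type line (wt), with no treatment named. In the second, 2 libraries each came from lines named ERDD (genotype PHF8DD), ERAA (genotype PHF8AA) and ERPHF8 (genotype PHF8), all taken on day 3. The labels of ERDD and ERAA name treatment with 4-hydroxytamoxifen (4-OHT), given in the protocol as 100 nM. No treatment is named for ERPHF8, and whether it was treated is not known. Any difference from ERPHF8 may therefore go with the form of PHF8 or with 4-OHT, and these cannot be told apart. The labels give neither the promoter that drives each form nor whether a line is 1 clone.

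The 20S proteasome is a barrel of stacked rings that cuts proteins into peptides, and its catalytic sites lie on the β subunits. In immune cells, and after interferon, PSMB8 (β5i), PSMB9 (β1i) and PSMB10 (β2i) take the places of PSMB5 (β5), PSMB6 (β1) and PSMB7 (β2) in newly built particles, which shifts the peptides made towards those that fit class I molecules. PSME1 (PA28α) and PSME2 (PA28β) form a ring that caps the barrel and opens its gate. PSMB8 and PSMB9 lie in the class II region of the major histocompatibility complex beside TAP1 and TAP2, which encode the transporter that carries such peptides into the endoplasmic reticulum.

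The start regions of these genes were examined because several of them moved together, and because interferon regulatory factors are known to bind repeats of GAAA. RefSeq windows on GRCh38.p14, from 250 bases before to 50 after each start, were at hand for all 5 genes, with 6 windows in all. All words of 8 letters or more in these windows were compared on both strands, and the longest word held by 4 of the 5 genes was GAAAGCGAAAGC. It was the 1 word of 12 letters so shared, with 0 of 13 letters. It was found in 17 of all 35116 windows of the same length (0.0484%), those of the 4 genes included. The word was picked from these windows, so its rarity is no test. The spaced repeat within it, GAAANNGAAA, was found in the same 4 genes and in 3.57% of all windows. The 4 stretches are shown with TAP1 for comparison, each 5′ to 3′ on the strand of the gene, with matches to the spaced repeat in capitals. TAP1 holds the spaced repeat in 2 overlapping matches and not the longer word.
PSMB8: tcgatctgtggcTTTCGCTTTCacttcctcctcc
PSMB10: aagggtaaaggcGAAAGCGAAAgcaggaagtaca
PSME1: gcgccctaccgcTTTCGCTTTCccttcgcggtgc
PSME2: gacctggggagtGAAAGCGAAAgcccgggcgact
TAP1: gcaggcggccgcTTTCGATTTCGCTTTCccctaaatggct

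These stretches lie at chr6:32844030-32844063 (minus strand) for PSMB8, chr16:67936850-67936883 (minus) for PSMB10, chr14:24136187-24136220 (plus) for PSME1, chr14:24146617-24146650 (minus) for PSME2 and chr6:32853811-32853850 (minus) for TAP1. Relative to the start, where position 1 is the first base of the gene and -1 the base before it, the match spans -21 to -12 in PSMB10 and -28 to -19 in PSME2. The match spans 6 to 15 in PSME1 and -4 to 6 at the second of the 2 starts of PSMB8. PSMB8's other window and the single window of PSMB9 held no match, nor did the 3 windows of the constitutive partner PSMB5 and of PSME3, the subunit of another PA28 ring. The TAP1 matches end 354 bases before the start of PSMB9, outside its window, since both genes are read outwards from starts 488 bases apart. The 250 bases before the start are shown for PSME2, which differed most between ERDD and ERAA, at chr14:24146611-24146860 (minus), and for PSMB9, which has no match, at chr6:32853942-32854191 (plus).
PSME2: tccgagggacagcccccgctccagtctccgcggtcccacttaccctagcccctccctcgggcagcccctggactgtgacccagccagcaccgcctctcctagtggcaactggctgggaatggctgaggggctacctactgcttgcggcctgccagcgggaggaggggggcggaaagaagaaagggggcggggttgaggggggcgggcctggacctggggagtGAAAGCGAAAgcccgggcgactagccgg
PSMB9: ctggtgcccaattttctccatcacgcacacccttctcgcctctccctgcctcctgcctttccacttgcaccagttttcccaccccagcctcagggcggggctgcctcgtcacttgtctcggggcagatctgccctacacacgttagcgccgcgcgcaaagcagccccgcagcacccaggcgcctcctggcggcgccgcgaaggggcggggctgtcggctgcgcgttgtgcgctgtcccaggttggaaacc

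A match is a description of letters and no test of binding was made.

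Depth ran from 18.2 to 51.5 M reads per library. Libraries 1 and 2 of the first experiment stood apart from libraries 3 and 4 in all 3 groups, so values there are given by library and within each pair. PHF8 RNA averaged 2020 ± 89.6 CPM in PHF8 libraries and 5380 ± 320 CPM in F279S libraries, against 50.6 ± 3.99 CPM in wt (SD, n = 4 each). It was 1098 and 1119 CPM in ERDD and 2305 and 1996 CPM in ERAA, against 1900.0 and 1912 CPM in ERPHF8. Of 13 monocytic markers, all averaged at least 1 CPM in every group, with LYZ and CD68 among the highest and CD14 between 2.25 and 14.3 CPM. Among markers of other lineages, the T cell genes CD3E and CD3D did not exceed 0.103 CPM in any library, and PF4 was at 0 in all 18. The labels do not say whether libraries of a group came from separate cultures, so p-values measure the spread between these libraries.

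A gene's value held every read over its whole span, introns included, on either strand, so neighbours that overlap share reads. PSMB9 is the case in point. Its span in the tables (chr6:32844136-32859585, 15450 bases, plus strand) begins 10056 bases before its RefSeq start and holds the whole of TAP1 (chr6:32845209-32853978, minus strand), which fills 56.8% of it. Reads also counted in TAP1 made up 62.2 to 70.1% of the PSMB9 reads of a library. PSMB9 values are therefore given as deposited and with the TAP1 reads taken away.

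The other spans overlap less. PSMB8 (chr6:32840717-32844703, minus strand) shares 568 bases with PSMB9. PSMB10 (chr16:67934502-67937087, minus) shares 1516 bases with CTC-479C5.12, whose reads amounted to 57.0 to 61.0% of those of PSMB10. PSME1 (chr14:24136158-24138967, plus) shares 9 bases with EMC9, a gene at 6.40 to 10.4 CPM. PSME2 (chr14:24143362-24147570, minus) shares 888 bases with RNF31, at 58.7 to 81.8 CPM. How many reads lie in the shared bases of these 4 pairs cannot be told from the tables.

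Taking all reads of a span per kilobase of the principal transcript, and over all 6 groups, mean levels were between 169 and 246 CPM per kb for PSMB8, 81.4 and 135 for PSMB10, 101 and 132 for PSME1 and 57.3 and 127 for PSME2. For PSMB9 the means were between 184 and 388 CPM per kb as deposited and between 66.2 and 134 CPM per kb without the TAP1 reads. Of the constitutive counterparts, PSMB5 stood at 53.1 to 80.0, PSMB6 at 29.5 to 52.2 and PSMB7 at 166 to 241 CPM per kb. PSMB9 was above PSMB8 as deposited in every group but PHF8, and below it in all 6 without the TAP1 reads, so the order of these genes depends on how shared reads are treated. The RefSeq start of PSMB9, at chr6:32854192, lies beyond the end of TAP1 at chr6:32853978. The stretch of PSMB9 read from that start therefore shares no bases with TAP1. ERDD had the highest group mean of PSMB8, PSMB9, PSME1 and PSME2, and F279S that of PSMB10 (165 ± 9.5 CPM, SD, n = 4). The lowest mean was that of ERPHF8 for PSMB8, of PHF8 for PSMB9 and of ERAA for PSMB10, PSME1 and PSME2. The experiments were tested apart, so this order across them was not tested. PSMB11, the thymus-specific β5 subunit, averaged at most 0.0122 CPM in any group.

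All 5 genes rose in ERDD against ERAA, from PSME1 at 1.31-fold to PSME2 at 2.22-fold. All 5 were called higher at an adjusted p below 0.05 (limma on log2(CPM + 0.5), Benjamini-Hochberg over all genes tested), where 68.1% of all 13831 genes were called and 34.8% were called higher. The change was therefore common in this comparison, and the size of each change is set beside all genes below. The groups did not overlap for any of the 5, as was the case for 83.7% of all genes.

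PSME2, the β subunit of the PA28 ring, had 179 and 178 CPM in ERDD libraries, against 75.2 and 85.7 CPM in ERAA libraries. Both ERDD values lay far above both ERAA values. The log2 change was 1.15 ± 0.06 (SE, limma adjusted p = 2.2e-06), and 1.56% of genes rose at least as far. PSME1, the α subunit, had 133 and 133 CPM in ERDD, against 94.5 and 108 CPM in ERAA. It had the smallest change of the 5, 0.39 ± 0.06 on the log2 scale (adjusted p = 6.4e-04), and 18.1% of genes rose at least as far. The PA28 subunits thus changed by different amounts: the ratio of PSME2 to PSME1 reads was 1.34 in both ERDD libraries, against 0.796 and 0.793 in ERAA.

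PSMB9, the β1i subunit, had 299 and 308 CPM in ERDD, against 171 and 183 CPM in ERAA. The log2 change was 0.78 ± 0.05 (limma adjusted p = 3.4e-06), a 1.72-fold difference of means, and 4.83% of genes rose at least as far. Without the TAP1 reads it had 103 and 107 CPM in ERDD, against 57.3 and 62.6 CPM in ERAA, and the log2 change was 0.81 ± 0.06 (limma adjusted p = 7.8e-06). The rise was thus as large in the reads outside TAP1. TAP1 itself had 196 and 200.2 CPM in ERDD, against 114 and 120.0 CPM in ERAA.

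PSMB8, the β5i subunit, had 277 and 276 CPM in ERDD, against 190.0 and 212 CPM in ERAA. PSMB10, the β2i subunit, had 151 and 150.5 CPM in ERDD, against 91.3 and 107 CPM in ERAA. The ERDD libraries were alike for both genes, while ERAA library 1 was the lower of its pair for all 5. The log2 changes were 0.46 ± 0.06 for PSMB8 and 0.61 ± 0.07 for PSMB10 (limma adjusted p = 1.6e-04 and 1.1e-04). CTC-479C5.12, which shares reads with PSMB10, changed by 0.59 ± 0.07.

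**Figure D1:**
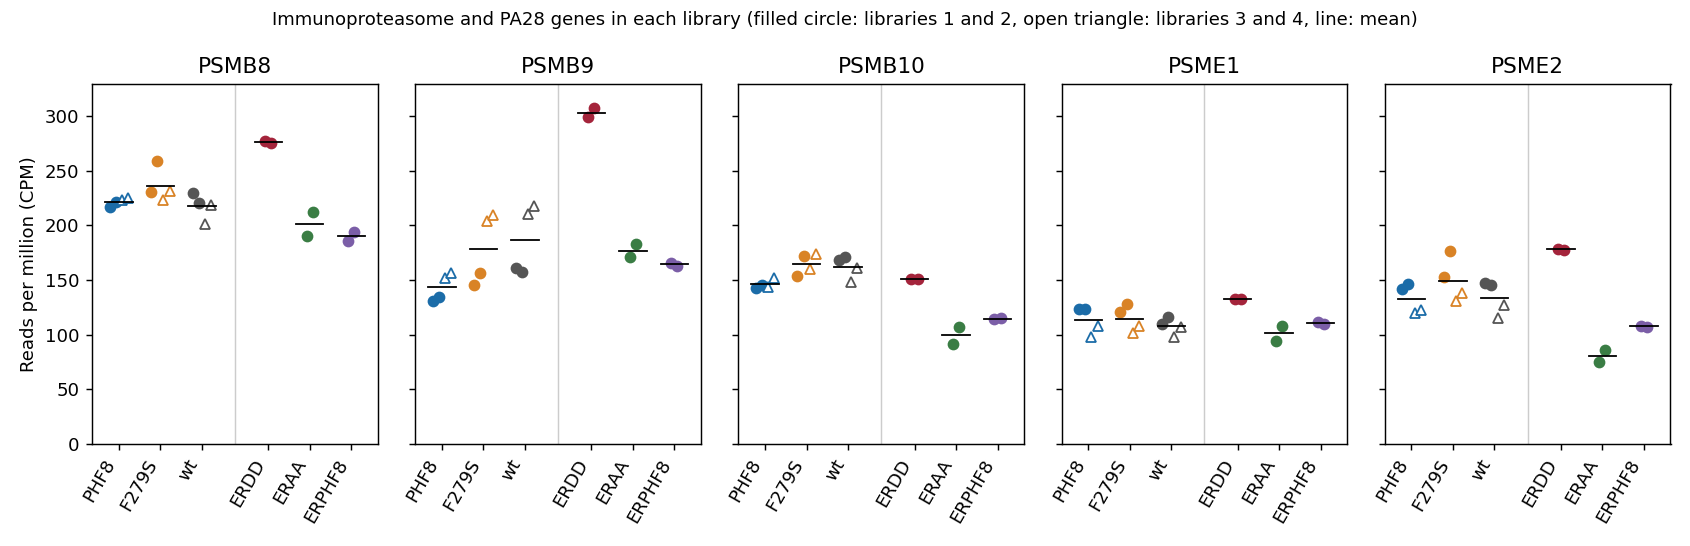
Level in CPM (vertical axis) of the 5 genes in each of the 18 libraries, by group; points are libraries and lines group means. The ERDD libraries lie above those of ERAA and ERPHF8 for all 5 genes, and PSMB9 in the first experiment is split by library pair.

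ERDD was also higher than ERPHF8 for all 5 genes, and again the groups did not overlap, as in 84.0% of all genes. All 5 were called higher, where 52.8% of genes were called and 24.8% called higher. PSMB9 had 299 and 308 CPM in ERDD, against 166 and 163 CPM in ERPHF8, a 1.85-fold difference of means. Its log2 change of 0.88 ± 0.05 (limma adjusted p = 7.2e-06) was reached or exceeded by 1.42% of genes. PSME2 had 179 and 178 CPM in ERDD, against 108 and 107 CPM in ERPHF8 (0.73 ± 0.06, adjusted p = 7.9e-05). For PSMB8 there were 277 and 276 CPM in ERDD, against 186 and 194 CPM in ERPHF8, and for PSMB10 151 and 150.5 CPM in ERDD, against 114.5 and 115 CPM in ERPHF8. The log2 changes were 0.54 ± 0.06 and 0.39 ± 0.07 (adjusted p = 2.3e-04 and 0.0023). PSME1 differed least, with 133 and 133 CPM in ERDD, against 111 and 110 CPM in ERPHF8 (0.27 ± 0.06, adjusted p = 0.0079). Its call was lost without ERDD library 1, ERDD library 2 or ERPHF8 library 2 (limma adjusted p = 0.058, 0.058 and 0.056).

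ERAA set against ERPHF8 did not give the mirror image. Of the 5 genes, 2 were called lower and 0 higher, where 53.8% of genes were called and 29.7% called lower. The groups overlapped for PSMB8 and not for the other 4, as was so for 76.3% of all genes. PSME2 fell to 75.2 and 85.7 CPM in ERAA, against 108 and 107 CPM in ERPHF8 (log2 change -0.42 ± 0.06, limma adjusted p = 7.8e-04). PSMB10 had 91.3 and 107 CPM in ERAA, against 114.5 and 115 CPM in ERPHF8 (-0.21 ± 0.07, adjusted p = 0.031). This call was lost with trimmed-mean scaling factors, with no filter on low values and in a fit of these 2 groups alone (adjusted p = 0.089, 0.072 and 0.067). It was also lost when ERDD library 1, ERDD library 2, ERPHF8 library 1 or ERPHF8 library 2 was left out (0.065, 0.065, 0.11 and 0.12).

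The other 3 genes did not pass in ERAA against ERPHF8. The log2 change was 0.08 ± 0.06 for PSMB8, 0.10 ± 0.05 for PSMB9 and -0.13 ± 0.06 for PSME1 (limma adjusted p = 0.27, 0.084 and 0.11). Without ERAA library 1, which holds the lowest PSMB10, PSME1 and PSME2 values of the 6 libraries, 4 of the 5 genes were called, PSMB8 and PSMB9 higher and PSMB10 and PSME2 lower. Without ERAA library 2, PSME1 was called lower as well (-0.22 ± 0.03, adjusted p = 2.5e-04). The 3 comparisons among these lines share libraries and are set side by side as values only.

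**Figure D2:**
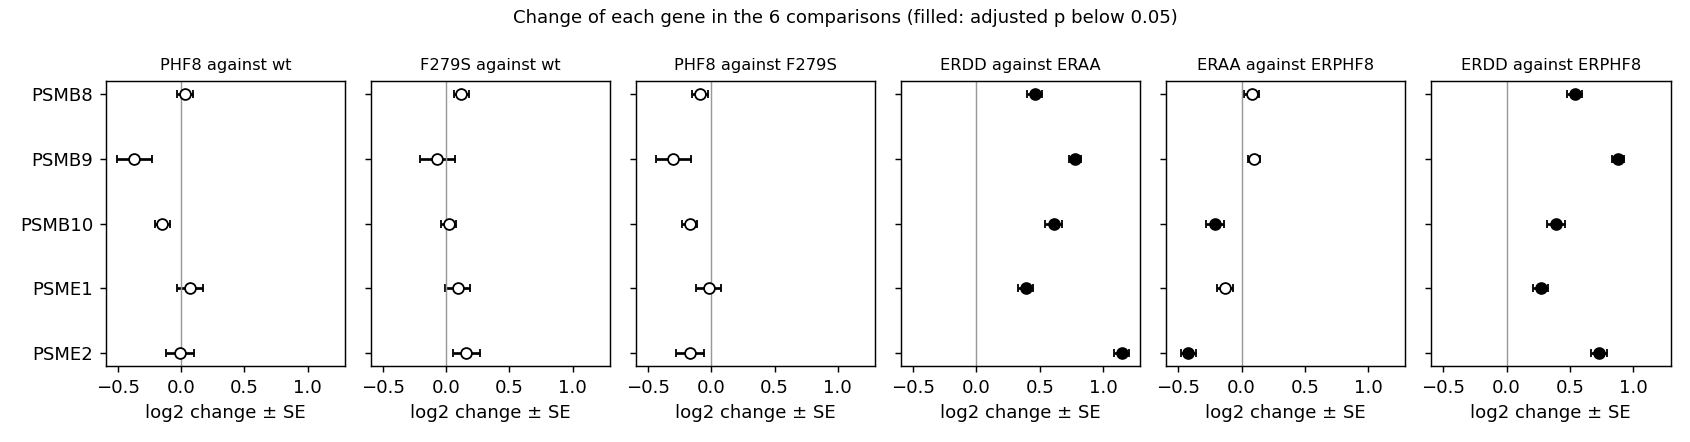
Log2 change of each gene with its standard error (horizontal axis) in the 6 comparisons, with the first-named group over the second; filled points passed an adjusted p below 0.05. All 5 genes are filled and positive in ERDD against ERAA and against ERPHF8, 2 are filled and negative in ERAA against ERPHF8, and none is filled in the first experiment.

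The rest of the proteasome moved in the same direction in ERDD against ERAA. Of 14 constitutive 20S subunits, 13 rose and 1 fell, with a median log2 change of 0.42 against a median of -0.00 over all genes tested. PSMB2, a β subunit without a catalytic site, changed by 0.86 ± 0.06, PSMA7, of the outer ring, by 0.65 ± 0.05, and PSMB6 by 0.81 ± 0.07 (limma adjusted p = 5.8e-06, 1.4e-05 and 3.1e-05). The subunit that fell was PSMB7, the counterpart of PSMB10, with 215 and 216 CPM in ERDD, against 236 and 237 CPM in ERAA (-0.14 ± 0.04, adjusted p = 0.012). All 18 genes of the 19S cap, which recognises ubiquitin-tagged proteins, rose, with a median of 0.48. PSMD2 changed by 0.89 ± 0.04 and PSMD11 by 0.87 ± 0.04. The median of the 5 immunoproteasome and PA28 genes was 0.61.

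Genes that assist the proteasome were less uniform. PSME3 rose by 0.48 ± 0.04 and PSME4, another activator, by 0.61 ± 0.08, and PSMF1, an inhibitor, had a log2 change of 0.07 ± 0.05 and was not called. Of 9 assembly factors, 5 rose and 0 fell, but the count was 3 with no filter on low values, with trimmed-mean factors, with the 2 groups alone or with the replicate block. It was 3 when ERAA library 1, ERDD library 1 or either ERPHF8 library was left out and 2 without ERDD library 2. Among the 5, POMP, the chaperone that completes the particle, changed by 0.51 ± 0.05 and PSMG1 by 0.59 ± 0.06 (limma adjusted p = 4.6e-05 and 4.3e-05).

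Against ERPHF8, ERDD had 12 of the 14 constitutive 20S genes higher and 1 lower (median 0.27) and 16 of the 18 cap genes higher and 0 lower (median 0.32). ERAA had 1 of the 14 higher and 9 lower (median -0.18) and 0 of the 18 higher and 13 lower (median -0.21). Without ERDD library 1 the first of these counts was 7 higher and 0 lower, and without ERPHF8 library 1 the last was 8 lower. PSMB7 was the 1 higher in ERAA (0.22 ± 0.04, limma adjusted p = 0.0019). PSMB9 did not share this pattern, with a change of 0.10 ± 0.05 in ERAA against ERPHF8 while its counterpart PSMB6 fell by 0.35 on the log2 scale (SE 0.07, adjusted p = 0.0044).

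**Figure D3:**
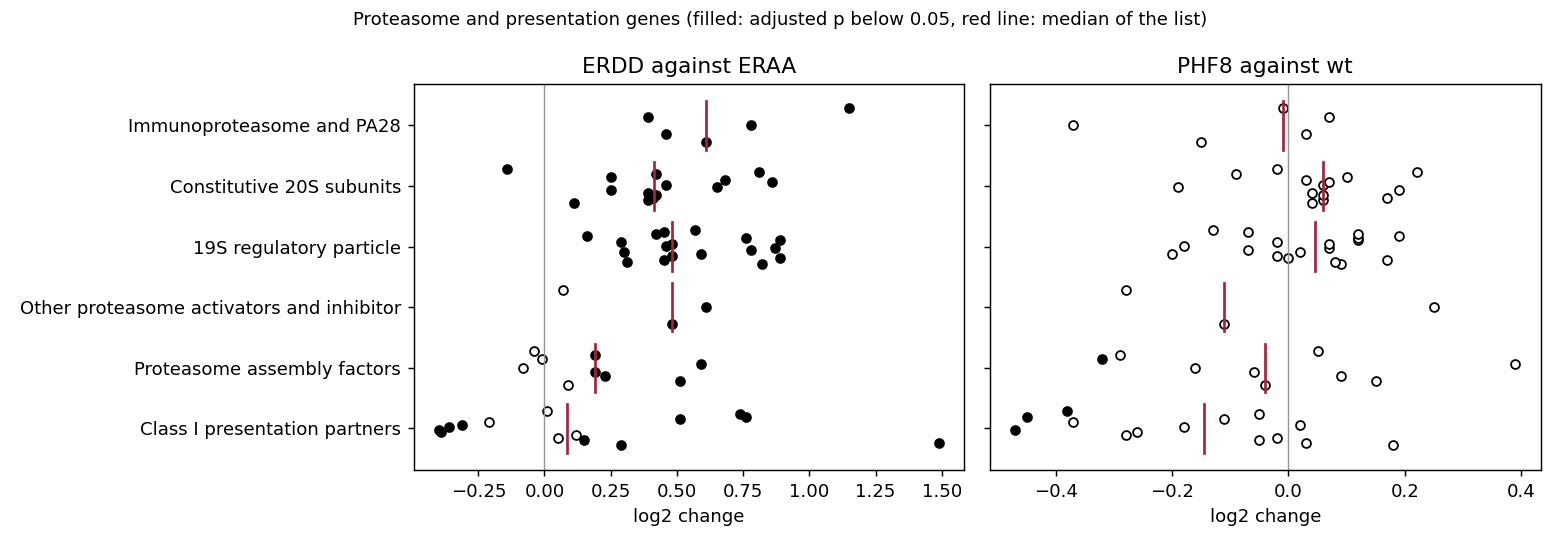
Log2 change (horizontal axis) of each gene of 6 lists in ERDD against ERAA, left, and PHF8 against wt, right; filled points passed an adjusted p below 0.05 and red lines are list medians. In ERDD against ERAA the median is 0.61 for the immunoproteasome and PA28 genes, 0.42 for the constitutive 20S genes and 0.48 for the 19S genes, and in PHF8 against wt the 3 medians are -0.01, 0.06 and 0.04.

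Ratios within a library do not depend on scaling, and they differed in behaviour among the 3 pairs of an inducible gene and its constitutive counterpart. PSMB10 reads per PSMB7 read were 0.704 and 0.697 in ERDD, against 0.386 and 0.453 in ERAA, a 1.68-fold difference. The log2 ratio of PSMB8 to PSMB5 was 1.58 and 1.59 in ERDD, against 1.51 and 1.59 in ERAA. PSMB9 reads per PSMB6 read were 6.86 and 6.79 in ERDD, against 7.33 and 6.76 in ERAA. The ERDD and ERAA libraries thus overlapped for PSMB8 over PSMB5 and for PSMB9 over PSMB6, and did not for PSMB10 over PSMB7. These are ratios of reads over spans, so they are compared between groups and not between genes. They describe RNA, and the subunits present in assembled particles were not measured.

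Against ERPHF8 all 3 of these read ratios were higher in ERDD. PSMB9 over PSMB6 was 6.86 and 6.79 in ERDD, against 5.15 and 5.06 in ERPHF8, a 1.34-fold difference. PSMB10 over PSMB7 was 0.704 and 0.697 in ERDD, against 0.569 and 0.558 in ERPHF8, a 1.24-fold difference. The log2 ratio of PSMB8 to PSMB5 was 1.58 and 1.59 in ERDD, against 1.30 and 1.35 in ERPHF8, a 1.20-fold difference. ERAA was also higher than ERPHF8 for PSMB9 over PSMB6 (1.38-fold) and PSMB8 over PSMB5 (1.17-fold), and lower for PSMB10 over PSMB7 (0.742-fold), with no overlap in any of the 3. With the TAP1 reads taken away, PSMB9 over PSMB6 differed by 1.31-fold in ERDD against ERPHF8 and by 0.991-fold in ERDD against ERAA. No test was made here, since an exact permutation test of 2 libraries against 2 cannot go below p = 0.33.

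**Figure D4:**
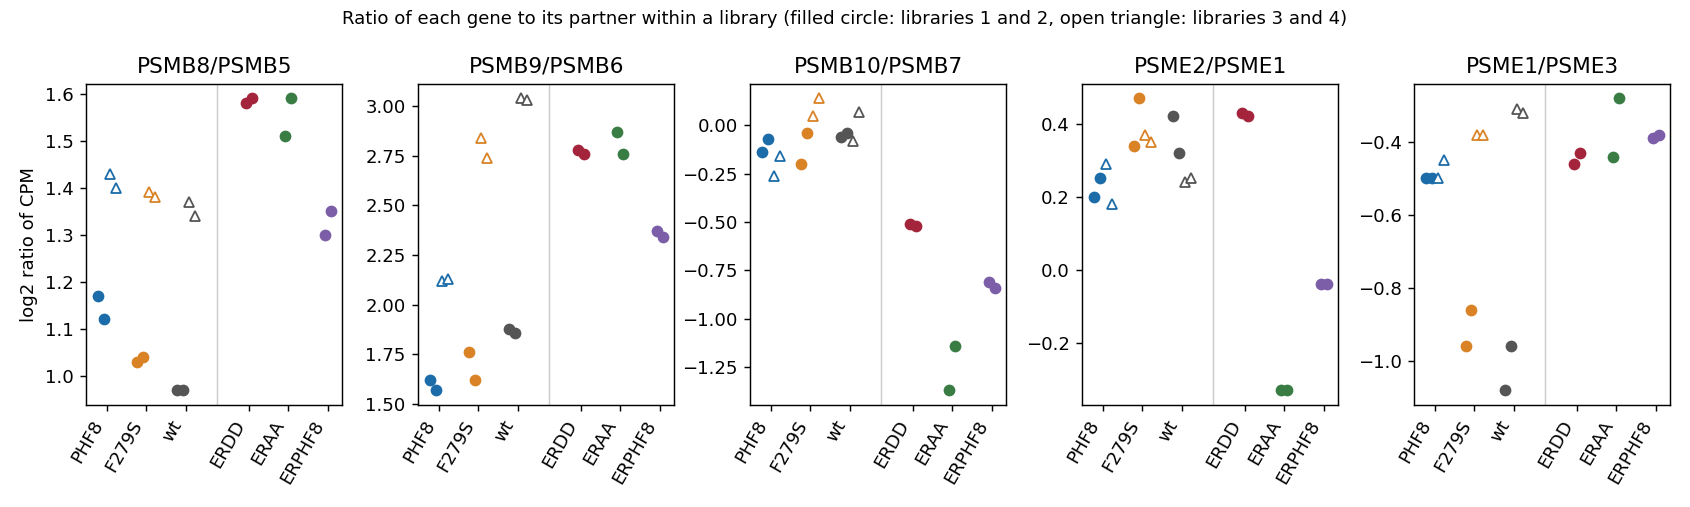
Log2 of the ratio of CPM of each gene to its partner (vertical axis, a scale of its own for each ratio) in the 18 libraries by group; circles are libraries 1 and 2 and triangles libraries 3 and 4. PSMB10 over PSMB7 and PSME2 over PSME1 separate ERDD from ERAA, and in the first experiment the library pairs lie apart for PSMB8 over PSMB5 and PSMB9 over PSMB6.

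Among 14 partners in class I presentation, 6 rose and 4 fell in ERDD against ERAA (median 0.09), where 68.1% of all genes were called. TAP1 changed by 0.76 ± 0.04, TAP2 by 0.74 ± 0.05, and CALR, a chaperone of class I assembly, by 1.49 ± 0.05 (limma adjusted p = 2.9e-06, 4.8e-06 and 3.8e-07). In ERDD against ERPHF8, 6 rose and 1 fell, with 10 higher and 1 lower in a fit of the 2 groups alone or without either ERAA library. In ERAA against ERPHF8, 5 rose and 3 fell, with 4 higher and 1 lower without ERPHF8 library 2. In ERAA against ERPHF8 HLA-E, HLA-B and HLA-C changed by 0.72 ± 0.05, 0.56 ± 0.06 and 0.48 ± 0.06, and CALR by -0.81 ± 0.05. Of all genes, 52.8% were called in ERDD against ERPHF8 and 53.8% in ERAA against ERPHF8.

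Of 19 genes known to regulate the immunoproteasome genes, 7 rose and 5 fell in ERDD against ERAA (median -0.00). In that comparison 68.1% of all genes were called. IRF9 and STAT2, which act together in the response to type I interferon, changed by 1.35 ± 0.06 and 0.58 ± 0.06 in ERDD against ERAA (limma adjusted p = 7.2e-07 and 5.5e-05). IRF1, known to drive PSMB9 and TAP1, had 25.0 and 26.8 CPM in ERDD, against 26.3 and 26.9 CPM in ERAA (-0.04 ± 0.07, adjusted p = 0.64). NLRC5, the class I transactivator, changed by 0.22 ± 0.07 (adjusted p = 0.024).

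Other measures also differed between these lines. PHF8 RNA in ERDD was lower by 0.95 on the log2 scale than in ERAA (log2 change -0.95 ± 0.07, limma adjusted p = 9.2e-06). The 13 monocytic markers summed to 2352 and 2367 CPM in ERDD, 2165 and 2168 CPM in ERAA and 1912 and 1913 CPM in ERPHF8. The 16 markers of other lineages summed to 658 and 666 CPM in ERDD, 420 and 424 CPM in ERAA and 450 and 453 CPM in ERPHF8, mostly through PECAM1, and 10 of the 16 averaged below 1 CPM in each of the 3 groups. HBA1 and PF4 were at 0 in all 3 groups. The part of these measures in the results was not tested, and in bulk RNA fewer cells with a transcript and less of it per cell cannot be told apart.

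Genes with the word GAAAGCGAAAGC in a start window were also counted, as a description of a list chosen after the sequences had been seen. The word was derived from 4 of the genes described here, so these are left out of the counts. Of the other 9 such genes tested in the ER lines, 6 were called higher and 1 lower in ERDD against ERAA, with a median log2 change of 0.33. Of the 10428 tested genes with a window, 3690 were called higher and 3389 lower, with a median of 0.01. Of the 9, 4 were higher and 2 lower in ERDD against ERPHF8, and 1 was higher and 4 lower in ERAA against ERPHF8. Of the 10428, these counts were 2605 and 2897, and 2447 and 3206. The spaced repeat GAAANNGAAA was held by 431 other tested genes. Among them was RNF31, whose span shares 888 bases with that of PSME2. Of the 431, 177 were higher and 123 lower in ERDD against ERAA (median 0.09). In ERDD against ERPHF8, 128 were higher and 124 lower (median -0.00), and in ERAA against ERPHF8, 69 and 158 (median -0.10). PSMB9, without the match, rose further in ERDD against ERAA than PSMB8, PSMB10 and PSME1, which hold it, and less far than PSME2, which holds it too.

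In the first experiment no gene of the 5 was called in PHF8 against wt, where 21.0% of genes were called and 8.28% called lower. Fits by voom on whole reads also called 0 in each of the 3 comparisons of this experiment. At an unadjusted p below 0.05 there were 2, PSMB9 and PSMB10, both lower. PSMB9 was the only one whose groups did not overlap, which held for 26.2% of all genes. Its values were 131, 135, 152 and 157 CPM in PHF8 libraries 1 to 4, against 161, 158, 211 and 218 CPM in wt libraries 1 to 4. In both groups libraries 1 and 2 were lower than 3 and 4, and every PHF8 value lay below every wt value, though the highest PHF8 value was just below the lowest in wt. The log2 change was -0.37 ± 0.14 (limma adjusted p = 0.094).

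Same-numbered libraries of the 3 groups deviated together, though some libraries of different numbers did so too (r up to 0.82). The fit with the replicate number as a block is given beside these results. With the block, PSMB9 fell by 0.37 on the log2 scale (SE 0.05, limma adjusted p = 4.1e-04) and PSMB10 by 0.15 (SE 0.05, adjusted p = 0.029), and the other 3 were not called. The block also called more of all genes than the 2874 called without it, so a call was more common there. In a fit on the means of each library pair, with the pair as a factor, PSMB9 was called and PSMB10 was not (limma adjusted p = 0.043 and 0.25). That fit called 1775 of all genes. Within libraries 1 and 2 PSMB9 differed by -0.26 and within libraries 3 and 4 by -0.48 (adjusted p = 3.0e-04 and 6.1e-04 in fits of each pair alone). The difference between these effects was 0.22 ± 0.07 (limma adjusted p = 0.036), and 30.5% of genes had such a difference. Its call was lost with trimmed-mean factors (adjusted p = 0.057) and without any 1 of PHF8 libraries 1 to 4 or wt libraries 1, 2 and 4 (0.062 to 0.12).

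The reads outside TAP1 did not follow the whole PSMB9 entry in both pairs. Without the TAP1 reads, PSMB9 had 49.5 and 50.8 CPM in PHF8 libraries 1 and 2, against 51.2 and 48.7 CPM in wt. In libraries 3 and 4 it had 52.1 and 54.5 CPM in PHF8, against 71.8 and 72.9 CPM in wt. The groups overlapped in the first pair and lay far apart in the second. The log2 change was 0.01 ± 0.07 in libraries 1 and 2 and -0.44 ± 0.06 in libraries 3 and 4 (limma adjusted p = 0.95 and 0.0015). Over all 12 libraries it was -0.22 ± 0.17 (adjusted p = 0.45), and -0.22 ± 0.09 with the library pair as a factor (adjusted p = 0.072). TAP1 was lower in both pairs, with 81.5, 83.9, 99.5 and 102 CPM in PHF8 libraries 1 to 4, against 110, 109, 139 and 145 CPM in wt (-0.45 ± 0.13, adjusted p = 0.033).

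**Figure D5:**
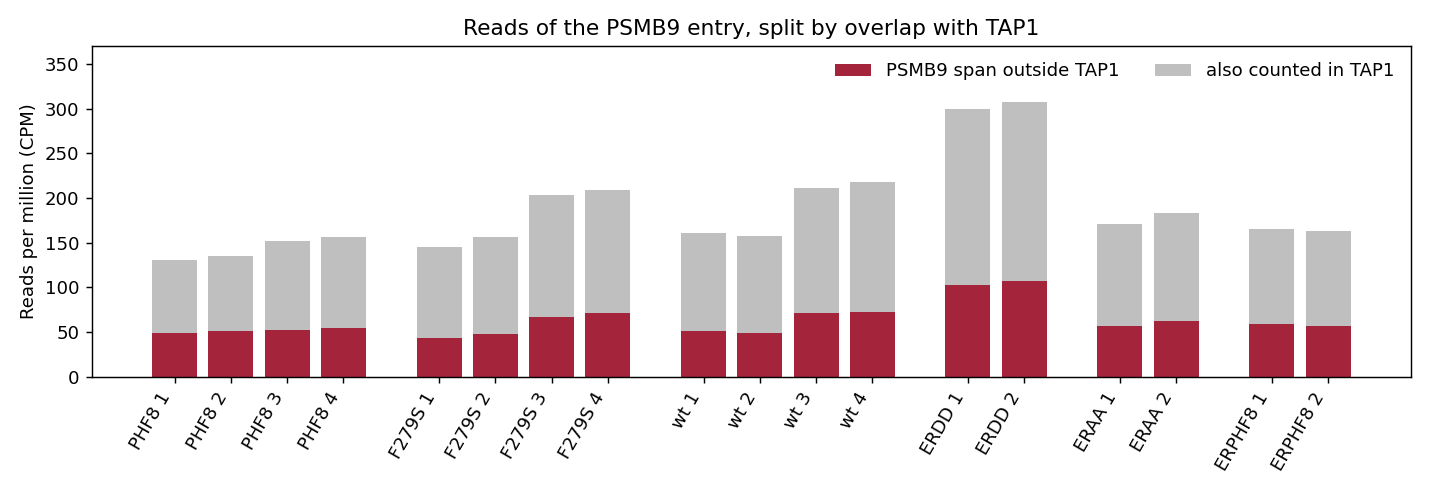
Level in CPM (vertical axis) of the PSMB9 entry in each of the 18 libraries, split into reads also counted in TAP1 (grey) and the rest (red). In libraries 1 and 2 the red part is 49.5 and 50.8 CPM in PHF8, against 51.2 and 48.7 CPM in wt, and in ERDD it is 103 and 107 CPM, against 57.3 and 62.6 CPM in ERAA.

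PSMB10 had 143, 145, 144 and 152 CPM in PHF8 libraries, against 169, 171, 148 and 161 CPM in wt. Only wt library 3 lay within the range of the PHF8 libraries. The log2 change was -0.15 ± 0.06 (limma adjusted p = 0.11), and it was called without wt library 3 (-0.19 ± 0.06, adjusted p = 0.045). It was -0.24 in libraries 1 and 2 and -0.07 in libraries 3 and 4 (adjusted p = 0.0011 and 0.46), a difference of -0.17 ± 0.09 that was not called (adjusted p = 0.17). CTC-479C5.12, which shares reads with it, was called lower (-0.19 ± 0.06, adjusted p = 0.043).

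PSMB8, PSME1 and PSME2 did not pass in PHF8 against wt under any fit run. PSMB8 had 217, 222, 224 and 225 CPM in PHF8, against 230.2, 221, 202 and 219 CPM in wt, a log2 change of 0.03 ± 0.06. PSME1 had 123, 123, 97.9 and 108 CPM in PHF8, against 110, 116, 97.4 and 107 CPM in wt (0.07 ± 0.10). PSME2 had 142, 147, 120.0 and 122 CPM in PHF8, against 147, 146, 115 and 127 CPM in wt (-0.01 ± 0.11). All 3 overlapped between the groups, and the PA28 genes were higher in libraries 1 and 2 than in 3 and 4 in both.

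F279S libraries were near wt for all 5 genes. None was called in F279S against wt, where 0.0146% of genes (2 of 13683) were called, and 0 of the 5 had an unadjusted p below 0.05. The log2 changes were 0.12 ± 0.06 for PSMB8, -0.07 ± 0.14 for PSMB9, 0.02 ± 0.06 for PSMB10, 0.09 ± 0.10 for PSME1 and 0.16 ± 0.11 for PSME2 (limma adjusted p from 0.83 to 1). By library, PSMB8 had 231, 259, 223 and 232 CPM in F279S and PSMB9 145, 156, 204 and 209 CPM. PSME1 had 121, 128, 101.5 and 108 CPM in F279S and PSME2 152, 176, 131 and 138 CPM. All 5 genes overlapped with the wt values given above. F279S library 2 had the highest PSMB8 and PSME2 values of the 12 libraries, 259 and 176 CPM. With the replicate block, PSME2 had an adjusted p of 0.097 and was the closest to a call.

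PHF8 against F279S also gave 0 of 5 called, where 20.1% of genes were called and 7.92% called lower, and 1 of the 5 had an unadjusted p below 0.05. That gene was PSMB10, with 143, 145, 144 and 152 CPM in PHF8, against 154, 172, 160.0 and 174 CPM in F279S. The groups did not overlap, as in 26.6% of all genes, and the log2 change was -0.17 ± 0.06 (limma adjusted p = 0.068). It was called without wt library 3, which enters through the shared spread (adjusted p = 0.046). With the replicate block 3 of the 5 were called lower: PSMB9 by 0.30, PSMB10 by 0.17 and PSME2 by 0.17 on the log2 scale (adjusted p = 0.0015, 0.015 and 0.012). Here too the block called more of all genes than the 2750 called without it. None of these 3 members was called in the fit on pair means (limma adjusted p = 0.075, 0.19 and 0.16), where 1594 of all genes were called.

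PSMB9 had 131, 135, 152 and 157 CPM in PHF8 libraries 1 to 4, against 145, 156, 204 and 209 CPM in F279S libraries 1 to 4. The groups overlapped, and the log2 change was -0.18 in libraries 1 and 2 and -0.42 in libraries 3 and 4. These effects differed by 0.24 ± 0.07 (limma adjusted p = 0.031), as did those of 21.8% of genes. The call was lost with trimmed-mean factors (adjusted p = 0.052) and without any 1 of PHF8 libraries 1 to 4 or F279S libraries 1, 3 and 4 (0.061 to 0.11). Without the TAP1 reads the 2 effects were 0.14 ± 0.07 and -0.38 ± 0.06 (adjusted p = 0.083 and 0.0034). The direction thus depended on the pair once the TAP1 reads were taken away, and only the lower value in libraries 3 and 4 was called.

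The library pairs differed in the genes themselves. PSMB9 in libraries 1 and 2 was 0.862 times its level in libraries 3 and 4 in PHF8, 0.730 times in F279S and 0.741 times in wt. PSME2 was 1.19, 1.22 and 1.21 times as high in libraries 1 and 2, and PSME1 1.20, 1.19 and 1.11 times. PSMB8 stood at 0.978 to 1.08 times and PSMB10 at 0.976 to 1.10 times. IRF1 moved with PSMB9, at 0.837 times in PHF8, 0.677 times in F279S and 0.653 times in wt, and this was not tested. What libraries 1 and 2 share against 3 and 4 is not given in the labels.

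Of the surrounding lists, the constitutive 20S genes had 0 of 14 and the cap genes 0 of 18 called in each comparison of the first experiment when the library pairs were fitted together with group as the only term. In PHF8 against wt the called genes of these lists went opposite ways in the 2 pairs. Within libraries 1 and 2 alone 0 of the 20S genes were higher and 3 lower, and 0 of the cap genes higher and 11 lower. That fit called 7029 of all genes. Within libraries 3 and 4 alone 6 of the 20S genes were higher and 0 lower, and 12 of the cap genes higher and 0 lower. That fit also called more of all genes than the 2874 called with group as the only term. In PHF8 against F279S, 5 of the 20S and 10 of the cap genes were lower in libraries 1 and 2. In libraries 3 and 4, 4 and 5 were higher, with 0 called the other way in either pair. Of all genes, 7366 were called in libraries 1 and 2. Fewer were called in libraries 3 and 4, though more than the 2750 called with group as the only term. Calls were thus common within pairs, and these list counts were not tested against all genes. With the replicate block, 2 of the 20S genes were higher and 0 lower in PHF8 against wt, with 2 cap genes higher and 1 lower. In PHF8 against F279S the block gave 0 higher and 1 lower for the 20S genes and 1 higher and 2 lower for the cap.

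Class I partners and regulators had calls without the block. In PHF8 against wt, 3 of 14 class I partners were called lower and 0 higher (median -0.14): TAPBP, which holds class I molecules at the transporter, by -0.38 ± 0.07, HLA-B by -0.47 ± 0.14 and TAP1. With the block 1 was higher and 5 were lower, and the count was 1 without PHF8 library 1 or 2 or wt library 3 or 4. Of 9 assembly factors, PSMG2 was called lower (-0.32 ± 0.07, limma adjusted p = 0.0074), and with the block 2 were higher and 2 lower. Of 19 regulators 2 were called higher and 2 lower. They were NFE2L2 and IRF2 (0.27 ± 0.06 and 0.35 ± 0.11), and IRF8 and SOCS3 (-0.36 ± 0.11 and -1.09 ± 0.34). The count of 4 was 7 with the block, 1 with no filter on low values and 2 with voom or pair means. It was 1 without PHF8 library 1 or 2, and 2 without wt library 1, 3 or 4. In F279S against wt 0 genes of any of these lists were called, with or without the block. Within libraries 1 and 2 alone 3 class I partners and 5 regulators were called higher there, with 1943 of all genes called.

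In PHF8 against F279S 2 class I partners were called lower, TAPBP and HLA-B. With the block 7 were lower and 0 higher, and the count was 1 without any 1 of PHF8 libraries 1, 2 and 3 or F279S libraries 2, 3 and 4. The 13 monocytic markers summed to between 1619 and 1953 CPM in PHF8, 2103 and 2303 CPM in F279S and 2056 and 2578 CPM in wt, and their part in the results was not tested.

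Ratios to partners were tested in the first experiment by a two-sided exact permutation test over libraries, 15 tests in all, for which 0.029 is the smallest p that 4 against 4 can give. That value was reached once, by PSME2 over PSME1 in PHF8 against F279S. The ratio was 1.15, 1.19, 1.23 and 1.13 in PHF8, against 1.26, 1.38, 1.29 and 1.28 in F279S, so the groups did not overlap. After adjustment over the 15 tests its permutation p was 0.43, and 0 of 15 passed, but a single ratio at the smallest p could not have passed this adjustment. PSMB10 over PSMB7 in PHF8 against wt came next (log2 difference -0.13, exact permutation p = 0.057, adjusted p = 0.43). The test does not use the pairing of library numbers, and an exact paired test of 4 numbers cannot go below p = 0.125. Compared number by number, PHF8 was higher than wt in 4 of 4 for PSMB8 over PSMB5, and lower in 4 of 4 for both PSMB9 over PSMB6 and PSMB10 over PSMB7. F279S was likewise higher than wt in 4 of 4 for PSMB8 over PSMB5 and lower in 4 of 4 for PSMB9 over PSMB6.

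Genes of the most similar pattern were found by Pearson r of log2(CPM + 0.5) over the 18 libraries, each experiment centred on its own mean, among 13504 genes. The points share library depth and the library pairs, so r is a description. PSME2 was nearest to IFI6 (r = 0.96), NDUFA6 (0.96) and LY6E (0.96). PSMB9 was nearest to SFXN5 (0.95), NR2F6 (0.93) and C19orf66 (0.93), and PSMB8 to TMEM8A (0.96), DRAP1 (0.95) and CLTB (0.94). PSMB10 was nearest to UQCRC1 (0.98), ADPRHL2 (0.95) and MRPL17 (0.94), and PSME1 to BCAP31 (0.94), SNX32 (0.93) and COPE (0.93). The 5 genes shared none of these 15 neighbours.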

How the data were processed

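Poly(A) RNA of 18 THP-1 libraries was sequenced, per the labels' protocols. The authors deposited RPKM values per gene with hg38 coordinates; STAR 2.7.0c, SAMtools 1.9 and DESeq2 are named in the submitters' processing notes, and which tool counted the reads, and with which annotation, is not given in the sources used here. Deposited RPKM values times the span gave whole reads within 0.001 for 100% of values. Across 1626 nested gene pairs, the inner gene never had more reads than the outer (100% of 22658 comparisons of a pair in a library), so reads had been counted over whole spans, on either strand and in every gene overlapped. Gene spans of all 5 genes, and of 86.9% of all rows, equal those of GENCODE release 29, which gave strand and transcript lengths.

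RPKM times the span in kb gave CPM. limma 3.58.1 (R 4.3.3) with a prior variance that follows the mean level was used on log2(CPM + 0.5), group being the only term, over all 12 libraries of the first experiment (13683 genes reaching 1 CPM in 4 or more libraries) or all 6 of the second (13831 genes, 2 or more libraries). A gene was called at p below 0.05 after Benjamini-Hochberg adjustment over all genes tested. Log2 changes understate those of low genes. The fits were checked on simulated data.

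The 5 genes, the lists and the tests were chosen with earlier results of these data known. Named genes were the 5 members, overlapping genes, their partner subunits, PHF8, up to 4 called genes per list and comparison by smallest adjusted p, and the 3 genes of most similar pattern. IRF1, NLRC5, PSMF1 and the marker genes were named after their values were seen. A gene that the rule would name is not reported here.

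Libraries of 1 group differed beyond counting noise (chi-square per gene 1.86 at the least), and each was counted as 1 replicate. This does not show that they are independent. Within the library pairs of a group in the first experiment it was 1.95 to 11.8, against 26.6 to 75.8 between pairs. All fits but that on pair means treat the libraries of a pair as separate replicates, which the labels do not state. In the first experiment, the deviations of same-numbered libraries from their group means correlated at 0.48 to 0.91 over 12 pairs, so the numbers were taken to pair the samples; the pairing comes from the data, since the labels give only the numbers. Start windows came from RefSeq, GRCh38.p14. Alternatives are listed in the closing section.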

Additional observations from a re-analysis of the deposited data

Results flagged for a closer look

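Of 30 sets of 4 libraries checked for a library far from the others, of which chance marks about 1 in 20, 1 was marked. The log2 ratio of PSME1 to PSME3 was -0.45 in PHF8 library 4, against -0.502 to -0.497 in the other PHF8 libraries, a gap of 0.903 of the whole range, which is itself small.

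The effect on PSMB9 differed between the library pairs of the first experiment, by a test of the difference itself. In PHF8 against wt the effects in libraries 1 and 2 and in libraries 3 and 4 differed by 0.22 on the log2 scale (limma adjusted p = 0.036), and in PHF8 against F279S by 0.24 (limma adjusted p = 0.031). Both calls were lost with trimmed-mean factors (limma adjusted p = 0.057 and 0.052) and in 7 of 12 fits that left out 1 library. All 4 effects were lower in PHF8 for the whole PSMB9 entry, which holds the TAP1 reads. Without the TAP1 reads the effects in libraries 1 and 2 were 0.01 ± 0.07 against wt and 0.14 ± 0.07 against F279S. In libraries 3 and 4 they were -0.44 ± 0.06 and -0.38 ± 0.06. The difference between pairs was not tested without the TAP1 reads. The comparisons with wt and with F279S share the PHF8 libraries.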

How the results depend on the processing

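Over all alternatives run, the 5 genes kept their side of the threshold in 519 of 555 values, lost the call in 10 and gained it in 26. A change of sign with a call in either fit occurred in 0. The 519 include changes of sign where neither fit called the gene. PSMB8 in PHF8 against wt was such a case, at 0.03 in the main fit and -0.04 in libraries 1 and 2 alone. In PHF8 against wt, the count of called genes was 0, but 2 with the replicate block or the library pair as a factor, 1 with pair means, 2 in libraries 1 and 2 alone, 1 in libraries 3 and 4 alone, and 0 to 1 when 1 library was left out (1 without wt library 3). In PHF8 against F279S it was 0, but 3 with the replicate block or the library pair as a factor, 4 in libraries 1 and 2 alone, 1 in libraries 3 and 4 alone, 0 with pair means, and 0 to 1 with 1 library left out (1 without wt library 3). In ERAA against ERPHF8 it was 2, but 1 with no filter on low values, with trimmed-mean (TMM) factors or with only the 2 groups compared, and 1 to 4 with 1 library left out. In the second experiment the same numbers did not go with like deviations (r from -0.34 to 0.10), and the block left the counts of 5, 2 and 5 as they were. ERAA and ERPHF8 gave r = -0.34, and a crossed pairing, chosen after seeing the data, called 2. The block changed no other call among the 5 genes. In PHF8 against wt and against F279S, more of all genes were also called with the block or the pair factor, and within each pair alone. Libraries 1 and 2 alone called 7029 of all genes against wt, where the main fit called 2874. Against F279S they called 7366, where the main fit called 2750. Both PSMB9 differences between library pairs lost their call with trimmed-mean factors and in 7 of 12 fits that left out 1 library, over ranges of 0.19 to 0.24 and 0.19 to 0.29. The fits on whole reads by voom and those without the TAP1 reads within library pairs were also chosen after seeing the data. The planned DESeq2 and edgeR fits were not run because the deposited unit was RPKM. With 2 libraries a group, leaving out 1 assumes that the lone library varies like the others. All 5 genes had at least 2194 reads in every library. Which of depth, shared reads, the number of libraries and the split of library pairs limits these values most was not compared.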
